A study of Mus musculus with 8 samples.

Results

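The genes described here are 10 genes that mark microglia, the resident macrophages of the brain. They are Csf1r, Cx3cr1, P2ry12, Trem2, Fcrls, Tmem119, Aif1, C1qa, C1qb and C1qc, and they were chosen by name as 10 of the 23284 gene symbols counted in each library. Microglia arise from yolk sac progenitors that enter the neural tube early in development, and they then depend on signals from neighbouring cells through the receptor encoded by Csf1r. In the developing cortex they are a sparse population that clears dying cells, contacts neural progenitors and neurons, and makes the initiating protein of the classical complement pathway. Genes such as P2ry12 and Tmem119 are higher in mature than in immature microglia, whereas Aif1 and the C1q genes are shared with other macrophages.

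The study asked which genes change in the embryonic cortex when the receptor tyrosine kinase ErbB4 is lost. RNA was sequenced from the dorsal cortex of C57BL/6 embryos at E15.5, with 4 libraries labelled wild type (ErbB4+/+) and 4 labelled ErbB4 KO (ErbB4-/-). The lines were bred as separate homozygous colonies, and mice without ErbB4 survive because a transgene with the cardiac α-MHC promoter restores ErbB4 in the heart. The meninges and the ganglionic eminences were removed at dissection, no cells were sorted, and the sources do not say whether the libraries of a genotype came from separate litters, so p-values measure only the spread between these libraries.

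Between 28205703 and 48871480 reads were counted per library, so 1 count was worth 0.0203 to 0.0357 CPM, the unit of reads scaled by the normalised library total that is used for levels here. Erbb4 itself had 8.99 to 25.3 CPM in the libraries labelled ErbB4+/+ and 20.7 to 24.6 CPM in those labelled ErbB4-/-, so its summed count was not lower in the latter, and the genotypes named below are those of the labels. Xist, which is transcribed from the inactive X chromosome, was at 983 to 1686 CPM in ErbB4+/+ replicates 1 to 3 and at no more than 3.82 CPM in the other 5 libraries, so by this gene the sexes were not balanced between the genotypes. ErbB4+/+ replicate 1 stood apart from all other libraries, and the deviation of its log2 CPM from the mean of the 8 libraries fell with transcript length (Spearman's rho = -0.60 across 14253 genes, which are not independent replicates). All 10 microglia genes passed the filter on low counts.

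The members are placed in the mouse genome by the GENCODE annotation of NCBIM37 (mm9), and all 10 are annotated as protein coding. Cx3cr1 is at chr9:119957811-119977400, P2ry12 at chr3:59020193-59066753, Fcrls at chr3:87054680-87067660, Trem2 at chr17:48485726-48493472, Aif1 at chr17:35307936-35313013 and Tmem119 at chr5:114243738-114250525. C1qb, C1qc and C1qa follow each other on the minus strand of chromosome 4, at chr4:136436044-136442102, chr4:136445719-136448980 and chr4:136451832-136454718, with gaps of 3616 and 2851 bases. P2ry12 lies inside Med12l, which runs on the opposite strand, without a shared exon base.

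Promoter sequences from RefSeq (GRCm38.p6) were matched for 7 of the 10 members by symbol, each from 250 bases before to 50 bases after the annotated start. The letters GAGGAA, a core that PU.1 and related ETS factors of myeloid cells can bind, were searched on both strands and occurred in 5 of the 7 windows (Aif1, C1qb, C1qc, Fcrls and Trem2, not Cx3cr1 or P2ry12), compared with 28.3% of 32817 promoter windows of the same length. TATAAA, searched the same way, occurred in 1 of the 7 (Fcrls) and in 13.6% of all. The 250 bases before the start of C1qb and C1qc are shown because these neighbouring genes had the highest mean levels per length of the longest coding transcript. Both are written on the coding strand from the 5′ end, with GAGGAA or its reverse complement in capitals, which begins 30 bases before the start of C1qb and 193 bases before that of C1qc.
C1qb, chr4:136886201-136886450, minus strand: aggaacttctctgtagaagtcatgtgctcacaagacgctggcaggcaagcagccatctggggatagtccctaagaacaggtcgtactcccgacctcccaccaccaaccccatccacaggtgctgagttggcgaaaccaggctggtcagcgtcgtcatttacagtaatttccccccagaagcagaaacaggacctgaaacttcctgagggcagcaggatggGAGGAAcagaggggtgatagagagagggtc
C1qc, chr4:136892915-136893164, minus strand: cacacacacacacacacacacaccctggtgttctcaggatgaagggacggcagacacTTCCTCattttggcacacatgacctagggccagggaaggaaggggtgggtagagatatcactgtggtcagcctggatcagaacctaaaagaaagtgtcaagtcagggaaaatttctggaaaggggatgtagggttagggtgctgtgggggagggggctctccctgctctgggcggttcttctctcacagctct
A match of these letters is a description of the sequence only, as binding was not measured.

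Loss of ErbB4, as labelled, was not accompanied by a detectable change in any of the 10 microglia genes. Genes were tested with edgeR's quasi-likelihood F test with Benjamini-Hochberg adjustment over the 14696 genes that passed the filter. With an adjusted p under 0.05, 0 of the 10 members were called, where 0.0272% of all tested genes were called, and DESeq2 also called 0 (0.138% of all genes). At an unadjusted p under 0.05, edgeR called 0 members and 5.53% of all tested genes. In 0 of the 10 did the libraries of the genotypes lie on separate sides, as they did in 3.34% of all tested genes. Of the members, 7 had a log2 fold change above 0 and 3 below (49.2% of all tested genes were above 0), the median was 0.02, and that of all tested genes was -0.00. The split of the members turned with the libraries and the model, as 4 of 10 were above 0 without ErbB4+/+ replicate 2 or replicate 3 and 5 of 10 with Xist as a covariate, and their median moved to -0.058 when ErbB4+/+ replicate 2 was left out and to 0.11 when ErbB4+/+ replicate 1 was.

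**Figure D1:**
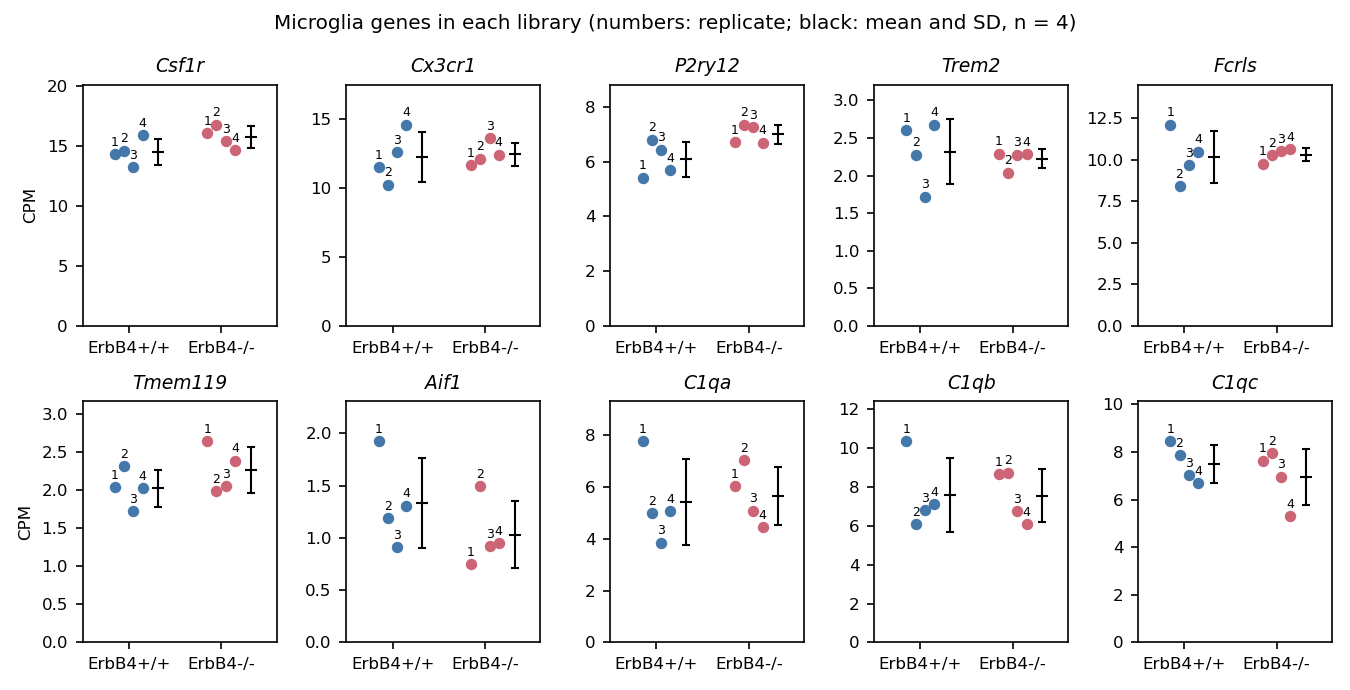
CPM of each microglia gene in each library, with a vertical axis from 0 in every panel, points numbered by replicate, and the mean and SD of the 4 libraries of each genotype in black. The libraries of the genotypes overlap in all 10 panels, and ErbB4+/+ replicate 1 is the highest of the 8 libraries for Fcrls, Aif1, C1qa, C1qb and C1qc.

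Among the receptors for signals from other cells were Csf1r and P2ry12, which had the smallest p-values of the 10. Csf1r, the receptor for the growth factors CSF1 and IL-34 that microglia need to survive, had 14.3, 14.6, 13.2 and 15.9 CPM in ErbB4+/+ replicates 1 to 4 and 16.1, 16.8, 15.4 and 14.7 CPM in ErbB4-/- replicates 1 to 4. The ErbB4-/- values were mostly the higher ones, but ErbB4+/+ replicate 4 lay among them. Mean Csf1r was 14.5 ± 1.10 (SD, n = 4) and 15.7 ± 0.901 CPM (SD, n = 4), which gave a log2 fold change of 0.12 (SE 0.08, 95% interval -0.07 to 0.30, adjusted p = 0.810 by edgeR's F test). Its direction turned with Xist as a covariate (-0.018) and with ErbB4+/+ replicate 4, the only ErbB4+/+ library with low Xist, alone against ErbB4-/- (-0.015), and without ErbB4+/+ replicate 3 it was 0.07. Csf1r (chr18:61265226-61291803, NCBIM37) shares 871 exon bases with Hmgxb3 on the opposite strand, and since reads carried no strand, its counts are uncertain by whatever reads fall there. In whole tissue such a value cannot tell apart a different number of microglia from a different amount of RNA per cell, and this holds for every gene here.

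P2ry12, the ADP receptor that guides microglial processes, had 5.42, 6.80, 6.44 and 5.70 CPM in the ErbB4+/+ libraries and 6.72, 7.35, 7.27 and 6.70 CPM in the ErbB4-/- libraries. ErbB4+/+ replicates 1, 3 and 4 were below every ErbB4-/- library, and replicate 2 was above 2 of them. The means were 6.09 ± 0.640 and 7.01 ± 0.349 CPM (SD, n = 4 each), which gave a log2 fold change of 0.20 (SE 0.11, 95% interval -0.03 to 0.44) with an unadjusted p of 0.0868 and an adjusted p of 0.810 by edgeR's F test. An exact two-sided permutation test over the 70 assignments of the libraries gave p = 0.0857, where 0.0286 is the smallest p that 4 against 4 allow. This was the smallest p among the members by either test. Without ErbB4+/+ replicate 2 the libraries of the genotypes no longer overlapped for P2ry12, as for 9.53% of all genes tested without it, and its log2 fold change was 0.26 (adjusted p = 0.525 by edgeR's F test). With Xist as a covariate it was 0.32. The lowest value with a library left out was 0.15, without ErbB4+/+ replicate 1.

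Cx3cr1, the receptor for the neuronal chemokine fractalkine, had 11.6, 10.3, 12.6 and 14.6 CPM in ErbB4+/+ libraries and 11.7, 12.1, 13.6 and 12.4 CPM in ErbB4-/- libraries. All ErbB4-/- values fell within the range of the ErbB4+/+ values. The log2 fold change was 0.02 (SE 0.11, 95% interval -0.22 to 0.26, adjusted p = 0.973 by edgeR's F test). Trem2, a receptor for lipids and cell debris, was low in all libraries, with 2.60, 2.28, 1.72 and 2.68 CPM in the ErbB4+/+ group and 2.29, 2.04, 2.28 and 2.29 CPM in the ErbB4-/- group, from 66 to 113 counts. Its ErbB4-/- values also lay inside the ErbB4+/+ range, and the log2 fold change was -0.05 (SE 0.17, 95% interval -0.43 to 0.32). For Trem2 it was -0.29 with Xist as a covariate, -0.27 with ErbB4+/+ replicate 4 alone, -0.18 without ErbB4+/+ replicate 3 and 0.03 without ErbB4+/+ replicate 4, and for Cx3cr1 it was -0.23 with Xist as a covariate.

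Among the surface proteins that serve as microglial markers, Fcrls, a scavenger receptor related to Fc receptors, had 12.1, 8.40, 9.69 and 10.5 CPM in ErbB4+/+ libraries and 9.78, 10.3, 10.5 and 10.6 CPM in ErbB4-/- libraries. The ErbB4+/+ libraries were spread on both sides of the ErbB4-/- libraries, with a log2 fold change of 0.02 (SE 0.11, 95% interval -0.22 to 0.26, adjusted p = 0.977 by edgeR's F test). Tmem119, a membrane protein of mature microglia, had 2.03, 2.31, 1.72 and 2.02 CPM against 2.64, 1.98, 2.05 and 2.38 CPM in ErbB4-/- libraries. Only ErbB4-/- replicates 1 and 4 were above all ErbB4+/+ libraries. The log2 fold change was 0.17 (SE 0.17, 95% interval -0.19 to 0.53), and it was 0.08 without ErbB4-/- replicate 1 and 0.10 without ErbB4+/+ replicate 3.

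Aif1, which encodes the calcium-binding protein Iba1 used to stain microglia, had the largest fold change of the 10 and the widest error. Its counts were from 30 to 54 per library. ErbB4+/+ replicates 1 to 4 had 1.93, 1.19, 0.912 and 1.31 CPM, and ErbB4-/- replicates 1 to 4 had 0.751, 1.49, 0.922 and 0.953 CPM. ErbB4-/- replicate 2 was above 3 of the ErbB4+/+ libraries. The log2 fold change of -0.37 (SE 0.28) had a 95% interval from -0.99 to 0.25, a fold from 0.503 to 1.19, and the adjusted p was 0.810 by edgeR's F test. Without ErbB4+/+ replicate 1 it was -0.15, and without ErbB4-/- replicate 2 it was -0.60.

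**Figure D2:**
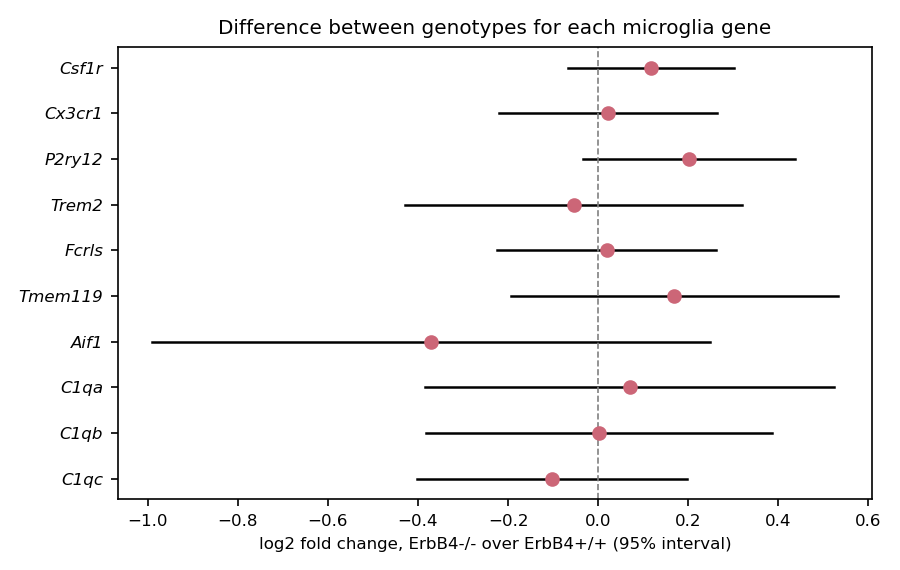
Log2 fold change of ErbB4-/- over ErbB4+/+ for each microglia gene (points) with its 95% interval from edgeR's model (lines, 4 libraries per genotype). All 10 intervals cross 0 and lie between -0.99 (Aif1) and 0.53 (Tmem119), and Csf1r and P2ry12 have the narrowest intervals.

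The products of C1qa, C1qb and C1qc are the A, B and C chains of C1q, which assemble in equal numbers and bind surfaces that are to be tagged or cleared. C1qa had 7.77, 5.004, 3.86 and 5.07 CPM in ErbB4+/+ libraries and 6.05, 7.04, 5.10 and 4.45 CPM in ErbB4-/- libraries. C1qb had 10.3, 6.06, 6.80 and 7.09 CPM against 8.65, 8.73, 6.73 and 6.07 CPM. C1qc had 8.45, 7.86, 7.04 and 6.69 CPM against 7.63, 7.95, 6.96 and 5.30 CPM. For all 3 chains ErbB4+/+ replicate 1 was the highest of the 8 libraries, and ErbB4-/- replicates 1 and 2 were above ErbB4-/- replicates 3 and 4. The log2 fold changes were 0.07 (SE 0.21), 0.00 (SE 0.18) and -0.10 (SE 0.14) for C1qa, C1qb and C1qc, with adjusted p-values of 0.948, 0.999 and 0.867 by edgeR's F test, and their 95% intervals together reached from -0.40 to 0.52. Without ErbB4+/+ replicate 1, the log2 fold changes of C1qa and C1qb were 0.29 and 0.18, and neither was called. Their direction turned with other libraries left out, to -0.066 for C1qa without ErbB4+/+ replicate 3 and to -0.089 for C1qb without ErbB4+/+ replicate 2. For C1qc the log2 fold change was -0.00052 without ErbB4-/- replicate 4 and -0.17 without ErbB4-/- replicate 2.

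Levels can be compared between genes only per transcript length. Each CPM was therefore divided by the length of the longest annotated coding transcript, from 875 nucleotides for Aif1 to 4701 for Csf1r. The order and the C1q shares below depend on this choice of length. Over all annotated exons, Trem2 has 4946 nucleotides against 1088, C1qc 1931 against 1203 and Aif1 1532 against 875. The lengths of the other members differed less or not at all, and levels per exon length were not computed. C1qb had the highest level, 6.95 ± 1.40 CPM per kb (SD, n = 8), followed by C1qc with 6.02 ± 0.812 and C1qa with 5.33 ± 1.27. The C1q chains held the first 3 places in 6 of the 8 libraries, and C1qb was first in 7. Fcrls had 4.51 ± 0.463, Cx3cr1 3.32 ± 0.355, Csf1r 3.21 ± 0.242 and P2ry12 2.80 ± 0.293 CPM per kb. Trem2 (2.09 ± 0.277), Aif1 (1.35 ± 0.442) and Tmem119 (0.955 ± 0.127) were at the low end, with Tmem119 last in 7 of the 8 libraries.

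The ranges over the 8 libraries overlapped for every pair of neighbours in this order. Within libraries, Fcrls was above Cx3cr1, Csf1r above P2ry12 and Trem2 above Aif1 in all 8, while Cx3cr1 was above Csf1r in 5 of 8. As a share of the 3 C1q chains per length, C1qa made up 27.9% ± 3.23 (SD, n = 4) in ErbB4+/+ and 29.9% ± 1.24 in ErbB4-/- libraries, C1qb 37.6% ± 3.17 and 38.2% ± 1.34, and C1qc 34.4% ± 4.22 and 31.9% ± 1.62. No difference between the genotypes was detected in any of the 3 shares (exact two-sided permutation tests, p = 0.314, 0.886 and 0.314).

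**Figure D3:**
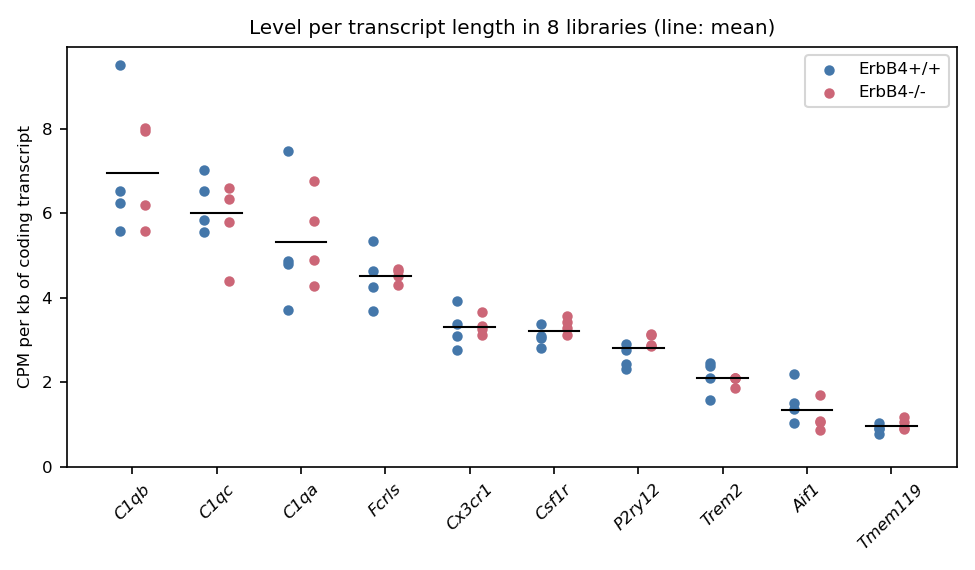
CPM per kb of the longest annotated coding transcript for each microglia gene, ordered by the mean of the 8 libraries (line), with a point for each library coloured by genotype. C1qb, C1qc and C1qa are highest and Tmem119 is lowest, and both genotypes are spread along the same range in each gene.

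The 10 genes summed to 76.5, 64.8, 64.0 and 71.6 CPM in ErbB4+/+ replicates 1 to 4 and to 72.3, 75.8, 70.9 and 65.9 CPM in ErbB4-/- replicates 1 to 4. The libraries of the genotypes overlapped, with means of 69.2 ± 5.94 and 71.2 ± 4.10 CPM (SD, n = 4 each) and a ratio of 1.03. Leaving out 1 library at a time gave ratios from 1.00 to 1.07.

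The spread between libraries differed among the members. Over the 8 libraries the coefficient of variation was 7.54% for Csf1r, 10.3% for Fcrls, 10.5% for P2ry12 and 10.7% for Cx3cr1, where counting error alone would give 4.34%, 5.30%, 6.58% and 4.80%. For Trem2 (13.2%) and Tmem119 (13.3%) it was close to the counting error of 11.3% and 11.5%. C1qa (23.8%), C1qb (20.1%), C1qc (13.5%) and Aif1 (32.7%) varied more than their counting error of 7.22%, 6.16%, 6.29% and 15.8%. In 8 of the 10 genes the coefficient of variation was smaller among ErbB4-/- than among ErbB4+/+ libraries, as in 72.1% of all tested genes. Without ErbB4+/+ replicate 1 this held for 6 of the 10 and for 52.2% of all.

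Transcript length moved with some of this spread. In ErbB4+/+ replicate 1, the 5 members with a coding transcript under 1500 nucleotides (Aif1, C1qa, C1qb, C1qc and Trem2) had a median deviation of 0.47 in log2 CPM from the mean of the 8 libraries, and the 5 longer members had a median of -0.08. The 2128 genes of the same length class among all tested genes had a median of 0.28 in that library and between -0.05 and -0.01 in the others. In the other libraries the 5 short members had medians such as -0.30 in ErbB4+/+ replicate 3, 0.23 in ErbB4-/- replicate 2 and -0.28 in ErbB4-/- replicate 4. After the trend of each library with length was removed, the log2 fold changes of the 10 members were from -0.26 (Aif1) to 0.23 (P2ry12), 8 were above 0, and 0 were called.

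**Figure D4:**
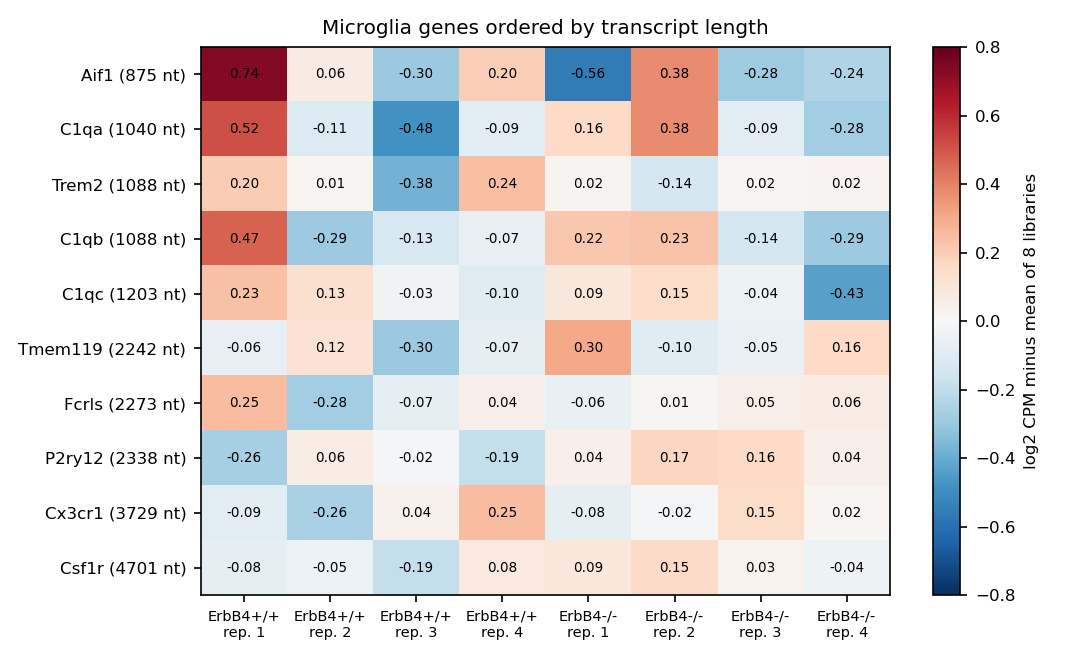
Deviation of log2 CPM from the mean of the 8 libraries for each microglia gene (rows, ordered by coding transcript length in nucleotides) and library (columns), with red above and blue below the mean. ErbB4+/+ replicate 1 is at 0.20 to 0.74 in the 5 short transcripts at the top, and at -0.26 to 0.25 in the 5 longer ones below.

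Across the 8 libraries, log2 CPM was correlated for the 45 pairs of members. Pearson's r was above 0 in 28 pairs, with a median of 0.17 and a range from -0.53 to 0.87, and 0 pairs passed a Benjamini-Hochberg adjusted p under 0.05 by r or by Spearman's rho. By r over all 8 libraries, though not after removal of the length trend or without ErbB4+/+ replicate 1, the 3 highest values were those of the C1q chains. They were closely followed by Aif1 and C1qa (r = 0.65, exact permutation p = 0.0832, adjusted p = 0.718). For Aif1 and C1qa, r was -0.16 without the 2 libraries farthest from the median of C1qa. It was 0.82 without the 2 farthest from the median of Aif1. C1qa and C1qb had r = 0.87 (exact permutation p = 0.00501, adjusted p = 0.225) and rho = 0.79 (exact permutation p = 0.0279, adjusted p = 0.917). C1qa and C1qc had r = 0.67 (exact permutation p = 0.0649, adjusted p = 0.718) and rho = 0.67 (exact permutation p = 0.0831, adjusted p = 0.917). C1qb and C1qc had r = 0.67 (exact permutation p = 0.0596, adjusted p = 0.718) and rho = 0.57 (exact permutation p = 0.151, adjusted p = 0.917).

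These correlations of the C1q chains were lower without their outlying libraries. Without ErbB4+/+ replicate 1 and ErbB4-/- replicate 2, which lay farthest from the medians of C1qa and C1qb, r was 0.61 for C1qa and C1qb and 0.42 for each of the other pairs. The libraries farthest from the median of C1qc were ErbB4+/+ replicate 1 and ErbB4-/- replicate 4, and in a check added after seeing the data, r without these was 0.60 for C1qa and C1qc and 0.35 for C1qb and C1qc. After removal of the length trend, r was 0.77, 0.52 and 0.55 for C1qa with C1qb, C1qa with C1qc and C1qb with C1qc. The C1q chains were then no longer the highest, as r was 0.79 for Cx3cr1 and Fcrls, 0.70 for Csf1r and C1qa, 0.66 for Trem2 and Tmem119 and 0.60 for P2ry12 and C1qc. Without ErbB4+/+ replicate 1 the highest r was that of Csf1r and C1qa (0.92), followed by Cx3cr1 and Fcrls (0.83) and C1qa and C1qb (0.78). The remaining 42 pairs had a median r of 0.13, and the lowest r was that of P2ry12 and Trem2 (r = -0.53, exact permutation p = 0.176, rho = -0.57). For P2ry12 and Trem2, r was 0.36 without the 2 libraries farthest from the median of P2ry12. It was -0.90 without the 2 farthest from the median of Trem2. The lowest rho was that of Cx3cr1 and C1qc (rho = -0.74, exact permutation p = 0.0458, adjusted p = 0.917, with r = -0.46). In 17 of the 45 pairs r was below 0.

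The genes whose pattern was most like the mean standardised level of the 10 members were named by Pearson's r over the 8 libraries. They were Maged2 (r = 0.97), Matn4 (0.96), Nck2 (0.95), Sap30l (0.95), Brdt (0.95), Alg1 (0.95), 2310045N01Rik (0.95), Tcea2 (0.94), Mgat4b (0.94) and Bbc3 (0.94). None of these is on any of the lists of cell type genes used here. Of 40 tested genes of a longer list of microglia and macrophage genes, 25 had r above 0 with that mean level, with a median of 0.10, compared with 51.0% of all tested genes and their median of 0.02. These values are descriptive, since the points share library, depth and the length trend of ErbB4+/+ replicate 1.

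Other genes of microglia and macrophages were likewise not called. The longer list held 41 genes, all matched and 40 tested, of which 21 were higher and 19 lower in ErbB4-/- libraries. Their median log2 fold change was 0.01, and edgeR called 0. Sfpi1, the gene of the myeloid transcription factor PU.1, had 1.53 ± 0.341 and 1.39 ± 0.166 CPM (SD, n = 4 each), and Irf8, another factor microglia need, had 1.59 ± 0.189 and 1.67 ± 0.411. Tyrobp, the signalling partner of Trem2, had 2.75 ± 0.459 and 2.70 ± 0.301 CPM. Unadjusted p-values under 0.05 were found for 3 of the 40 genes, where 5.53% of all tested genes had one. The log2 fold change was -0.47 (SE 0.18) for Gpr34, a microglial lysophospholipid receptor, -0.21 (SE 0.09) for Sall1 and 0.15 (SE 0.06) for Tgfbr1, and edgeR's adjusted p was 0.810 for all 3. Sall1 and Tgfbr1, which neural progenitors also express, made up 53.5% of the summed CPM of the list. Selplg, a selectin ligand, had the largest fold change of the list, 0.50 (edgeR adjusted p = 0.810, SE 0.35).

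Genes that neurons and other cells make for microglia were examined beside their receptors. Of 14 ligands and cues, all tested, 10 were higher and 4 lower, with a median log2 fold change of 0.06 and 0 called. That median was 0.017 without ErbB4-/- replicate 1 and 0.10 without ErbB4-/- replicate 4. Csf1, a ligand of Csf1r, had 11.0 ± 0.746 and 11.6 ± 1.19 CPM, and Il34, the other ligand, had 0.641 ± 0.291 and 0.746 ± 0.167 CPM (SD, n = 4 each). Cx3cl1, which encodes the Cx3cr1 ligand fractalkine, had 20.1, 27.7, 21.4 and 23.3 CPM in ErbB4+/+ libraries and 32.4, 30.5, 28.2 and 25.4 CPM in ErbB4-/- libraries. ErbB4-/- replicates 1 to 3 were above all ErbB4+/+ libraries, and replicate 4 was below ErbB4+/+ replicate 2. The log2 fold change of Cx3cl1 was 0.33 (SE 0.11), with an unadjusted p of 0.0101 and an adjusted p of 0.810 by edgeR's F test. For Cd47, the signal that restrains phagocytosis, the log2 fold change was 0.30 (SE 0.11), and for Tgfb2 it was 0.23 (SE 0.09), where edgeR gave both an adjusted p of 0.810. Ptn and Cd200, the most abundant of the list, had log2 fold changes of -0.01 (SE 0.07) and 0.02 (SE 0.09).

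Of 22 other complement genes, 16 passed the filter, with 11 higher, 5 lower, a median log2 fold change of 0.13 and 0 called. That median was 0.0080 without ErbB4-/- replicate 3, the library with the highest level of choroid plexus genes, 0.03 without ErbB4+/+ replicate 1 and 0.04 after removal of the length trend. C3, which is cleaved downstream of C1q, had 0.339 ± 0.125 and 0.413 ± 0.127 CPM. C1s, the protease that C1q activates, and C4b, its substrate, had at most 16 and 4 counts in any library and were not tested. C4a of the same list had 40 to 70 counts and was tested, with a log2 fold change of -0.08 (SE 0.24). Masp1, of the lectin pathway, and Clu, an inhibitor of the terminal complex, were the most abundant, with log2 fold changes of 0.03 (SE 0.07) and 0.29 (SE 0.12). For Cd55, a membrane inhibitor, and Colec12, a scavenger receptor of the collectin family, they were 0.31 (SE 0.20) and 0.34 (SE 0.26). Colec12 had 4.56 CPM in ErbB4-/- replicate 3, 1.97 to 2.19 CPM in the other ErbB4-/- libraries and 1.83 to 2.46 CPM in the ErbB4+/+ libraries, and Clu and Cd55 were also highest in ErbB4-/- replicate 3.

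Of 16 genes of amoeboid and lipid-handling microglia, 15 were tested, 7 higher and 8 lower, with a median log2 fold change of -0.03 and 0 called. The direction of that median turned, as it was 0.032 without ErbB4+/+ replicate 1 and 0.015 after removal of the length trend. Without ErbB4+/+ replicate 2 it was -0.059. Gpnmb, a membrane glycoprotein of lipid-laden macrophages, had 1.36, 1.48, 1.33 and 1.22 CPM in ErbB4+/+ libraries and 0.852, 0.660, 0.871 and 0.794 CPM in ErbB4-/- libraries, from 23 to 51 counts. The libraries of the genotypes did not overlap for Gpnmb, 1 of the 15 genes, as for 3.34% of all tested genes. Its log2 fold change was -0.75 (SE 0.19, unadjusted p = 0.00221, adjusted p = 0.740 by edgeR's F test). Lgals3, a lectin of phagocytic cells, was at 0.71 (SE 0.33) on the same log2 scale, and the lysosomal proteases Ctsb and Ctsd, which many cell types express, had 0.00 (SE 0.05) and -0.07 (SE 0.08).

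Markers of other macrophages and blood-derived cells were examined next. Of 15 genes of macrophages of the meninges and vessels, 6 passed the filter, and Lyve1, Cd163, Pf4 and Ms4a7 had at most 9 counts in any library. Mrc1, the mannose receptor that marks these cells, had 0.924 ± 0.251 and 0.942 ± 0.415 CPM (SD, n = 4 each). The summed level of the list was 43.9 to 45.9 CPM in ErbB4+/+ and 44.1 to 50.9 in ErbB4-/- libraries, 83.5% of it from Maf and Stab1, with log2 fold changes of 0.05 (SE 0.08) and -0.10 (SE 0.13). Folr2 and Dab2 of this list had log2 fold changes of 0.53 (SE 0.39) and 0.24 (SE 0.16), and both were highest in ErbB4-/- replicate 3. Of 23 genes of monocytes, neutrophils, mast cells and lymphocytes, 21 had at most 11 counts in any library, and Cd3g, Cd8a and Mcpt4 had 0 in all. Kit and Fn1, which cells of the cortex and its vessels also express, made up 99.5% of that list's sum, and the sum without them was from 0.445 to 1.01 CPM.

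The other cell types of the dissected tissue were compared by the summed CPM of their markers, with 0 genes called in any list. Endothelial and pericyte genes summed to 255 to 277 CPM in ErbB4+/+ and 259 to 279 in ErbB4-/- libraries. Meningeal fibroblast genes summed to 110 to 156 and 114 to 152 CPM, 87.9% of it from Igf2 and Zic1, and ganglionic eminence genes to 508 to 691 and 503 to 710 CPM. Red blood cell genes summed to 132 to 151 and 103 to 133 CPM, 84.6% of it from Hbb-y and from Tfrc, which many cell types express. The globin genes Hba-a1, Hba-a2 and Hbb-b2 had 0 counts in all libraries and Hbb-b1 at most 1, so the sum holds almost none of their RNA. The cause was not tested. The embryonic globin Hbb-y was at a log2 fold change of -1.72 (edgeR adjusted p = 0.810, SE 0.45). The choroid plexus list was at 12.7 to 25.6 CPM in 7 libraries and at 654 CPM in ErbB4-/- replicate 3. Cortical neuron genes summed to 7839 to 7906 CPM in ErbB4+/+ and 7982 to 8385 in ErbB4-/- libraries, which did not overlap. Dcx and Tubb3 made up 58.2% of that sum, the other neuron genes overlapped at 3182 to 3584 and 3278 to 3532 CPM, and of the 9 neuron genes 6 were higher and 3 lower. Radial glia and progenitor genes summed to 2456 to 3069 and 2395 to 2710 CPM. Of these 10 genes 9 were lower and 1 higher in ErbB4-/- libraries. Their median on the log2 scale was -0.16 and lay between -0.22 and -0.13 in 19 alternatives, and 4 had an unadjusted p under 0.05, which 5.53% of all tested genes had, by edgeR's F test. Without ErbB4-/- replicate 3 the median log2 fold change of the members was 0.03 and their summed ratio 1.03, and in that library they summed to 70.9 CPM. Whether the levels of other cell types bear on those of the microglia genes was not tested beyond this.

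**Figure D5:**
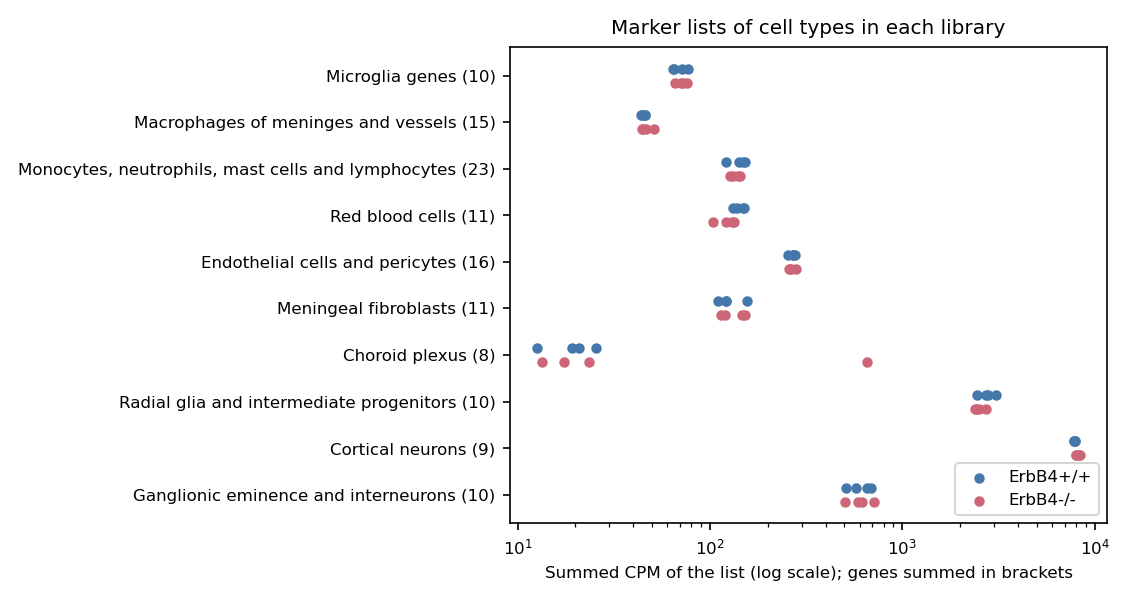
Summed CPM of the microglia genes and of the marker lists of other cell types (log scale, number of genes summed in brackets), with a point for each library coloured by genotype. The microglia genes lie between 64.0 and 76.5 CPM in all 8 libraries, and the choroid plexus list stands out at 654 CPM in ErbB4-/- replicate 3.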

How the data were processed

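The authors made unstranded polyA libraries from dorsal cortex RNA and sequenced single-end reads of 50 nucleotides. Alignment to mm9 used HISAT, and counting used HTSeq-count. The gene annotation and counting mode are not given in the sources used here. The authors' deposited files hold raw counts per gene symbol, with mapping and counting done and no normalization. A deposited table of the authors' DESeq2 comparison (fold changes and p-values) was not used here.

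Groups came from the labels. Counts were analysed with edgeR 4.0.16 in R 4.3.3 (TMM factors, from 0.994 to 1.01, glmQLFit, glmQLFTest, and filterByExpr at a minimum count of 10 and a total of 15). Benjamini-Hochberg adjustment covered the 14696 genes kept, at a threshold of 0.05. Log2 CPM had a prior count of 2. Standard errors and 95% intervals came from the quasi-likelihood F statistic. Coefficients of variation were taken over CPM. Single values were tested by exact permutation. Transcript lengths came from GENCODE for NCBIM37 (the longest coding transcript). No pair of libraries agreed within counting noise (lowest chi-square per gene 5.70 among 28 pairs). Alternatives were DESeq2 1.42.0, limma-voom 3.58.1, other factors, filters, thresholds and prior count, a replicate block, Xist as a covariate, ErbB4+/+ replicate 4 alone, removal of the length trend, and each library left out. The fit was tested on simulated data.

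The members and lists were chosen with earlier results of these data known. Genes to name were all members and, of each other list, called genes, the 2 most abundant and the 2 with the largest log2 fold change, plus the 10 genes most like the members. Irf8, Sfpi1, Tyrobp, Csf1, Il34, Tgfb2, C3, C1s, C4a, C4b, Mrc1 and the near-absent markers were named after their values were seen. Plots used Python 3.11.15 and matplotlib 3.10.9.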

Additional observations from a re-analysis of the deposited data

Results flagged for a closer look

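Of 48 groups of 4 libraries examined (20 of single members, 28 of list sums), 5 held a library whose gap to its nearest neighbour was large for the range of its group by Dixon's criterion, where chance gives about 1 in 20. Trem2 was at 2.04 CPM in ErbB4-/- replicate 2, below the 3 others at 2.28 to 2.29. The longer list of microglia and macrophage genes summed to 558 CPM in ErbB4+/+ replicate 3. Ligands and cues summed to 860 CPM in ErbB4+/+ replicate 1 and, in the other genotype, to 740 CPM in ErbB4-/- replicate 4. Choroid plexus genes summed to 654 CPM in ErbB4-/- replicate 3.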

How the results depend on the processing

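Depth limits the low members most, since Aif1 had at most 54 counts in a library. The count of members called was 0 in all 21 alternatives, but the fit of ErbB4+/+ replicate 4 alone took its spread from the ErbB4-/- libraries, and that with Xist as a covariate rests mostly on the same library, so a count of 0 there says nothing about stability. The thresholds of 0.01 and 0.1 also add nothing for the members. They were applied to the fit reported, where the lowest adjusted p of a member was 0.810 by edgeR's F test. The count over all genes, 4 in the fit reported, was 23 with DESeq2 and 2 after removal of the length trend. It was 1 with relative log expression factors, with upper-quartile factors, with Xist as a covariate, with ErbB4+/+ replicate 4 alone against ErbB4-/- and at a threshold of 0.01. With libraries left out it was from 1 (for example without ErbB4+/+ replicate 3) to 13 (without ErbB4+/+ replicate 4). The replicate numbers were not treated as pairs in the fit reported. The correlation of same-numbered deviations was 0.08, 0.13, 0.05 and 0.02 for replicates 1 to 4. For replicates 1 and 2 the library of the same number was the best match in both directions, and for 3 and 4 it was not. Whether the numbers pair the libraries cannot be told from these values. With a replicate block 1 gene and 0 members were called.

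The genotypes did not overlap in 3 members with ErbB4+/+ replicate 4 alone (42.1% of all genes tested then), and in 0 to 1 with a library left out (P2ry12 without ErbB4+/+ replicate 2, where 9.53% of all genes did not overlap, and Csf1r without ErbB4+/+ replicate 4, where 5.83% did not). Of 189 values of single members under alternatives, 163 kept their direction and 26 reversed, and 0 passed the threshold. The cause was not tested. With Xist as a covariate, log2 fold changes reversed to -0.018 for Csf1r, -0.23 for Cx3cr1, -0.049 for Fcrls and 0.042 for C1qc. With ErbB4+/+ replicate 4 alone they were -0.015, -0.23, -0.029 and 0.061. In these fits Trem2 kept its direction at -0.29 and -0.27, and P2ry12 at 0.32 and 0.30. C1qb was at -0.00017 with DESeq2 and -0.00033 with no filter, and Trem2 at 0.027 after removal of the length trend. With libraries left out, the range was -0.054 to 0.12 for Cx3cr1, -0.18 to 0.025 for Trem2, -0.062 to 0.11 for Fcrls, -0.066 to 0.29 for C1qa, -0.089 to 0.18 for C1qb, -0.17 to -0.00052 for C1qc and 0.081 to 0.24 for Tmem119. Aif1 was not tested with a mean of at least 50 counts, which kept 9 members.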
